A study of Homo sapiens with 10 samples.

Results

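The 49 genes described here encode the machinery of DNA replication and S phase, and were chosen by name from 60573 named genes in a table of read counts. They were arranged by role into 12 origin licensing genes, 6 helicase activation genes, 8 polymerase and primase genes, 7 sliding clamp, clamp loader and ligation genes, 4 nucleotide supply genes, 7 E2F and cyclin E genes, and 5 genes of chromatin assembly and protein turnover. All 49 passed the filter on low counts. The cells were U266, a cultured plasma cell line established from a human multiple myeloma. Every library came from U266 cells that a lentivirus had made to express dCas9-VPR, a Cas9 without cutting activity fused to a transcriptional activator, and that were kept in puromycin and blasticidin. In 5 libraries, A to E, the cells carried a guide RNA directed to the start site of EFNB2, the gene of the membrane ligand ephrin-B2. In the other 5, the controls A to E, they carried a scrambled, non-targeting guide RNA. The comparison asks what differs in the RNA of cells in which that guide directs the activator to EFNB2. The labels name 1 guide to EFNB2 and do not say whether the libraries came from separate cultures, so p-values measure the spread between these libraries only, which may be technical.

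DNA replication starts at origins. The origin recognition complex, CDC6 and CDT1 load the MCM2 to MCM7 helicase ring in G1 (licensing), and CDC45 and the GINS complex switch the ring on in S phase. Polymerase alpha with its primase lays primers, polymerases epsilon and delta extend the strands while held by the PCNA clamp, and the flap nuclease FEN1 and the ligase LIG1 join the fragments. Many of these genes are transcribed at the G1/S boundary under E2F transcription factors, which are released when cyclin-dependent kinases phosphorylate RB-family proteins. The libraries are bulk RNA, in which a larger share of cells in S phase and more of a transcript per cell cannot be told apart.

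Library totals lay between 47267929 and 56513336 counts, and 17833 genes were tested. Levels are given as CPM, a gene's counts scaled to a common library size with TMM factors (the trimmed mean of M-values). Values listed per library run from A to E within each guide. EFNB2 stood at 0.955, 1.121, 1.254, 1.496 and 1.21 CPM in EFNB2-guide libraries, against 0.170, 0.136, 0.143, 0.110 and 0.0365 CPM in control-guide libraries. The groups did not overlap (log2 fold change 3.32, SE 0.25, adjusted p = 4.69e-08), with at most 73 reads of EFNB2 in any library. On the authors' normalized values, with a pseudocount of 1 added before taking logarithms, its log2 fold change was 0.97, and it did not pass the filter of 1 CPM in 5 libraries. The 8 plasma cell markers, SDC1, XBP1 and IRF4 among them, were all expressed, and summed to 5510 to 5790 CPM with the EFNB2 guide and 5800 to 6600 CPM with the control guide. They were divided by log2 fold change. SLAMF7 (0.57), XBP1 (0.20) and JCHAIN (0.10) were higher with the EFNB2 guide. SDC1 (-0.51), TNFRSF17 (-0.38) and MZB1 (-0.66) were lower, and PRDM1 (0.02) and IRF4 (0.04) did not pass. B cell markers summed to 0.251 to 0.474 CPM in EFNB2-guide and 0.175 to 0.547 CPM in control-guide libraries, with MS4A1 under 0.1 CPM in every library. T cell markers summed to 11.1 to 12.3 CPM with the EFNB2 guide and 8.59 to 10.0 CPM with the control guide, with CD3D and CD3G under 0.1 CPM throughout. Most of the sum was TRAC, which was higher (mean 8.95 against 5.90 CPM, log2 fold change 0.60). CD3E did not pass (mean 2.85 against 3.21 CPM, log2 fold change -0.17). Myeloid markers summed to 2.42 to 3.38 CPM in EFNB2-guide and 2.06 to 2.58 CPM in control-guide libraries, with LYZ and CSF1R under 0.1 CPM throughout. Most of that sum was ITGAM, which did not pass (log2 fold change 0.13). CD14 was higher at a low level (mean 0.287 against 0.0782 CPM). The part of these markers in the results was not tested.

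The A libraries stood apart from the others of their guide. EFNB2-guide A scored 21.2 on the second principal component, against -8.04 to -0.798 for the other EFNB2-guide libraries. Control-guide A scored -25.9 on it, against -6.24 to 12.6 for the other control-guide libraries. The first component, with 61.7% of the variance against 8.33% for the second, separated the guides over all genes tested. On it, EFNB2-guide A scored -26.4, against -35.9 to -34.6 for the others of its guide. Control-guide A scored 28.2 there, against 33.6 to 35.3 for the others of its guide. Among the 49 genes, EFNB2-guide A was the lowest library of its guide for 37 genes (75.5%, against 29.9% of all genes tested), and control-guide A was the highest of its guide for 44 (89.8%, against 28.9%). Each of the A libraries was thus shifted towards the level of the other guide. The labels do not say what the letters stand for, and counts are therefore given with and without both A libraries.

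Promoter sequences of 7 members are printed because they span the range of the results: ORC6, POLE, RFC3 and E2F2 were higher with the EFNB2 guide, TYMS did not pass the test, and MCM6 and PRIM1 were lower. The sequences are RefSeq's (assembly GRCh38.p14), 160 bases ending 1 base before the annotated gene start, 5′ to 3′ on the gene's strand. Capitals mark the letters TTTGGCGC, TTTCCCGC, TTTGCCGC or TTTCGCGC (E2F letters) and the pentamer of the CCAAT box, read on both strands. The windows are chr16:46689499-46689658 on the plus strand for ORC6, chr12:132687343-132687502 on the minus strand for POLE, chr13:33817989-33818148 on the plus strand for RFC3, chr1:23531234-23531393 on the minus strand for E2F2, chr18:657493-657652 on the plus strand for TYMS, chr2:135876444-135876603 on the minus strand for MCM6 and chr12:56752324-56752483 on the minus strand for PRIM1.
ORC6: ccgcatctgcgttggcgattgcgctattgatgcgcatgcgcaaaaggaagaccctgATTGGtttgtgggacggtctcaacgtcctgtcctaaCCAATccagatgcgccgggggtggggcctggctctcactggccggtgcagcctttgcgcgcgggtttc
POLE: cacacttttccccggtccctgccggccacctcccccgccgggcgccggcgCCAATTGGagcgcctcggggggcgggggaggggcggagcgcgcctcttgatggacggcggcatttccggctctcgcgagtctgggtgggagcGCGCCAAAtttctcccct
RFC3: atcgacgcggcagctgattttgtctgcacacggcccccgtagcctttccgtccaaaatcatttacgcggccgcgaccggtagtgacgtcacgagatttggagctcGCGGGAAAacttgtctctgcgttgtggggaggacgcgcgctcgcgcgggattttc
E2F2: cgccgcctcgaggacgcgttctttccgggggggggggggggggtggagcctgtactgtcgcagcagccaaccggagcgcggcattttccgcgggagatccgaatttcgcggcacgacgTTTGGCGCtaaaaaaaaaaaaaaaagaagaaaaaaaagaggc
TYMS: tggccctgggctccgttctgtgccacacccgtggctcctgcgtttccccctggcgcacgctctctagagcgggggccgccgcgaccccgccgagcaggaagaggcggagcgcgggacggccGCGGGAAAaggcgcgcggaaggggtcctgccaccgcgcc
MCM6: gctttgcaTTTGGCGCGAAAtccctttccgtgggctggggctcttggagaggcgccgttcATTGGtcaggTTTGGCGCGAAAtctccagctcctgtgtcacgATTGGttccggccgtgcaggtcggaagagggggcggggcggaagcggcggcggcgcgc
PRIM1: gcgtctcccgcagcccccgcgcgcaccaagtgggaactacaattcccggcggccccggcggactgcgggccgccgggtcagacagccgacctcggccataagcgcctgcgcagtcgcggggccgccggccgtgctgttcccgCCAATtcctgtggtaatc
The MCM6 window holds 4 matches to the E2F letters, which overlap in pairs, and 2 CCAAT boxes. The POLE window holds 1 E2F match and 2 CCAAT boxes that overlap each other on opposite strands. RFC3, E2F2 and TYMS hold 1 E2F match each, whereas ORC6 holds 2 CCAAT boxes and PRIM1 holds 1, without E2F letters in these 160 bases.

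The RefSeq promoter table (250 bases before to 50 after the start) has an entry for 42 members, and 54 entries for them. A member was counted when any of its entries held the letters. E2F letters stood in 22 of the 42 members, or 52.4%, against 6.44% of tested genes with an entry and 3.99% of all genes in the table. CCAAT boxes stood in 25 of the 42 members (59.5%), against 43.5% of the tested genes and 39.7% of all genes in the table. The CHR element is known from promoters active in G2 and mitosis. Its letters TTTGAA, together with the variant spelling TTCGAA, stood in 2 members (4.76%), against 15.6% of the tested genes and 19.5% of all genes in the table. Members with and without E2F letters had similar counts: 17 of 22 with the letters were higher and 1 lower with the EFNB2 guide (median log2 fold change 0.17), against 14 of 20 higher and 1 lower without them (median 0.21). A match of letters is a description of the sequence and not a binding site. MCM4, MCM5, GINS4, CCNE2, CDK2, POLD3 and E2F8 were not matched in the table.

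With the EFNB2 guide, 37 of the 49 replication genes were higher, 2 were lower and 10 did not pass the test (edgeR quasi-likelihood test, adjusted p under 0.05). Over all 17833 genes tested, 22.8% were called higher and 22.6% lower, or 45.4% in either direction. The median log2 fold change was 0.19 over the 49 genes, an increase of 14.3%, against 0.01 over all genes tested, and 43 of the 49 had a positive value. Most differences were small: 4 members differed by more than 1.5-fold, and the values ran from -0.25 for PRIM1 to 0.85 for ORC6. The replication genes are well expressed, and among the 10783 genes at or above the lowest member's mean CPM, 26.0% were called higher and 30.2% lower, with a median of -0.01. All 5 EFNB2-guide libraries lay above all 5 control-guide libraries for 19 members, and below for 2 members, against 15.0% and 15.2% of all genes tested, or 30.3% in either direction.

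**Figure D1:**
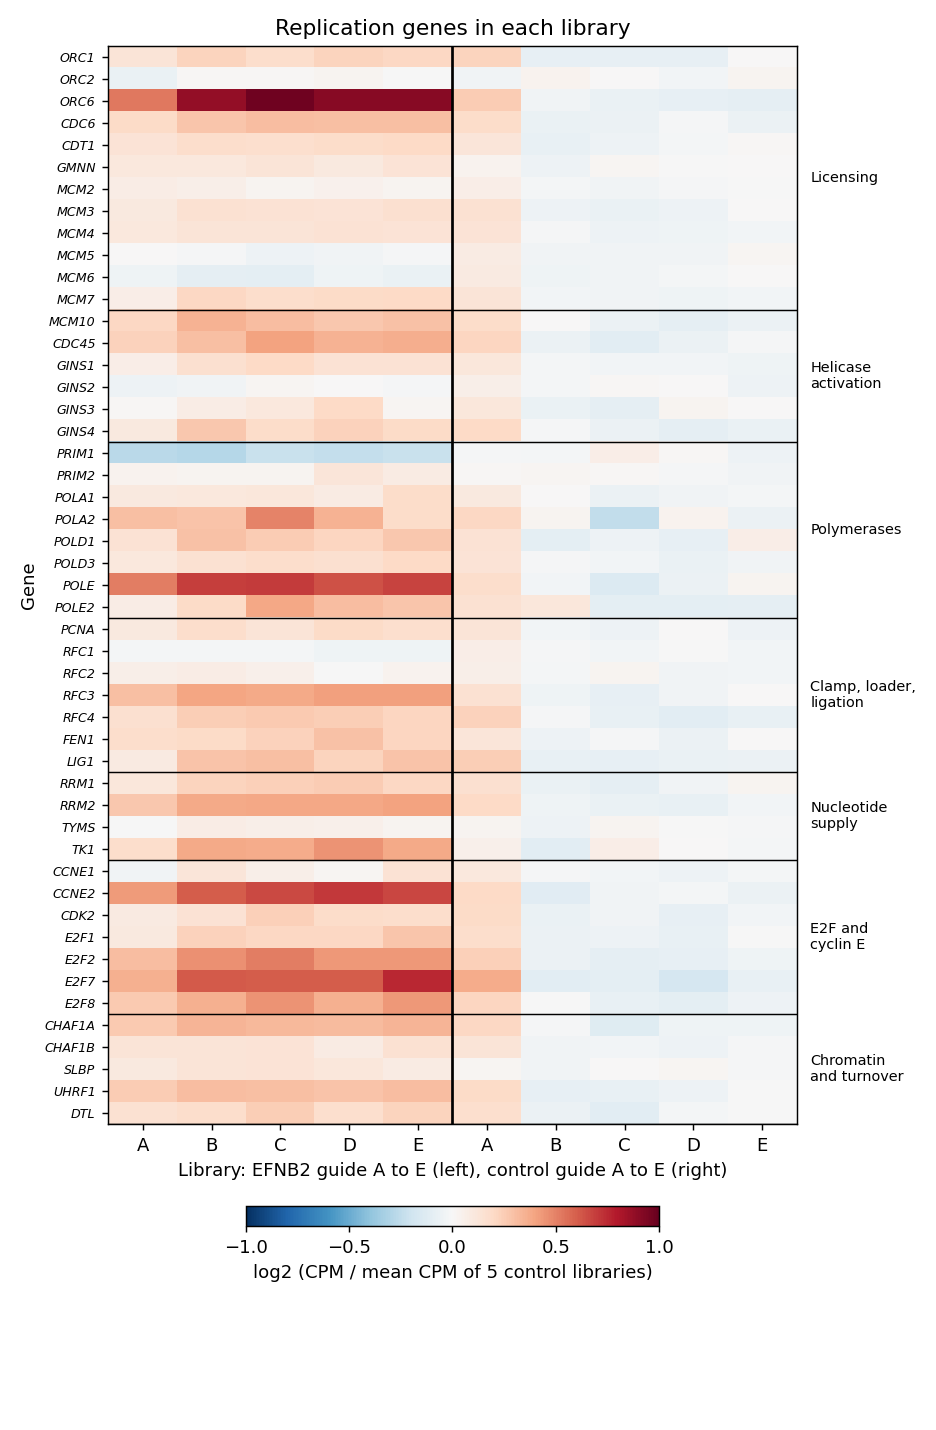
Level of each of the 49 genes (rows, by role) in each of the 10 libraries (columns, EFNB2-guide A to E and then control-guide A to E), as log2 of the CPM over the mean of the control-guide libraries. EFNB2-guide libraries B to E are mostly above the control mean, and control-guide A is also above it for most genes.

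Without both A libraries, 41 members were higher and 2 lower, among them all 37 that were higher with all libraries, and the median log2 fold change was 0.25. Of all genes tested in that fit, 28.0% were higher and 27.2% lower. The groups of 4 then did not overlap for 40 members that were higher and 2 that were lower, against 24.6% and 24.5% of all genes. Between libraries of the same letter, EFNB2-guide A was above control-guide A for 22 members and below it for 27, with a median log2 difference of -0.02. The other letters went one way: the EFNB2-guide library was the higher for 44 members at B, 46 at C, 46 at D and 44 at E, with median log2 differences of 0.24, 0.24, 0.26 and 0.22. From A to E these are 44.9%, 89.8%, 93.9%, 93.9% and 89.8% of the members. Of all genes tested, 49.1%, 50.8%, 51.3%, 50.2% and 51.4% were higher, with medians between -0.01 and 0.01. The median over the 49 genes, as log2 over the control mean, was 0.10, 0.19, 0.20, 0.20 and 0.20 in EFNB2-guide libraries, against 0.14, -0.04, -0.05, -0.04 and -0.02 in control-guide libraries. Control-guide A thus lay above EFNB2-guide A in this summary, while the remaining libraries separated by guide. By role, EFNB2-guide A was above control-guide A for nucleotide supply (0.15 against 0.10) and for the E2F and cyclin E genes (0.26 against 0.20), and below it in the other role groups.

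**Figure D2:**
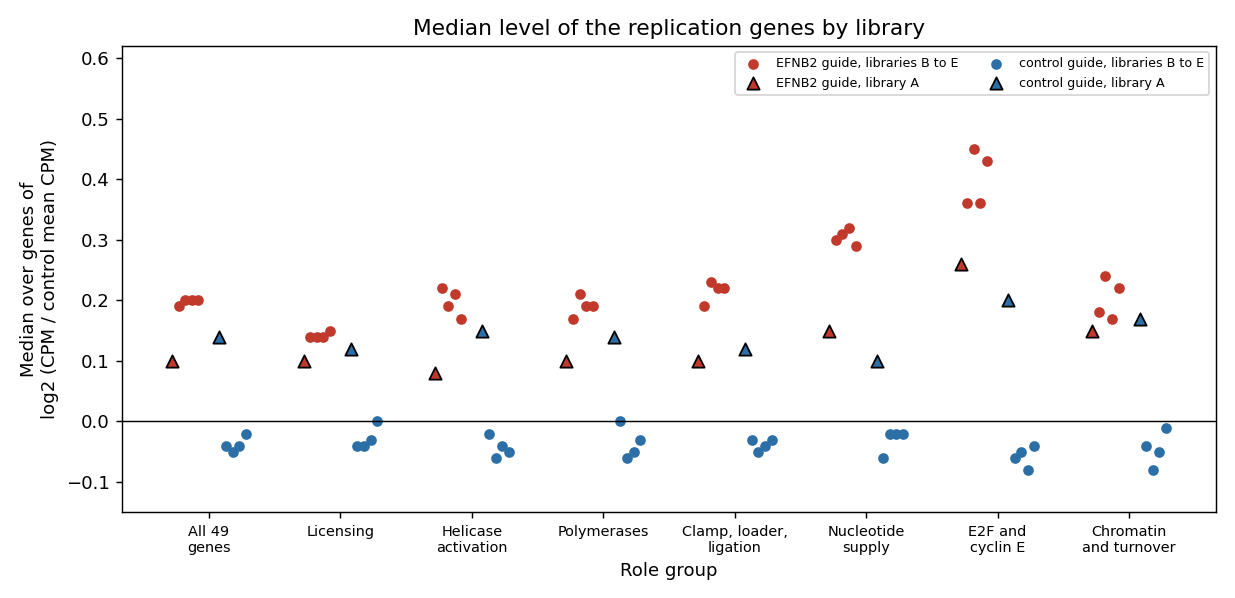
Median over the members of each role group of log2 CPM over the control mean, with 1 point per library, EFNB2-guide libraries left of control-guide libraries. Over all 49 genes the EFNB2-guide libraries lie between 0.10 and 0.20 and the control-guide libraries between -0.05 and 0.14, with control-guide A the highest of its guide.

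Among the 12 licensing genes, 8 were higher, 1 was lower and 3 did not pass, with a median log2 fold change of 0.13. ORC6, the smallest subunit of the origin recognition complex, differed most of all 49 members. It stood at 114, 145, 155, 149 and 149 CPM in EFNB2-guide libraries, against 94.1, 76.8, 75.2, 74.6 and 74.0 CPM in control-guide libraries. The groups did not overlap, and EFNB2-guide A was the lowest and control-guide A the highest of their guides. Its mean was 142 ± 16.4 CPM in EFNB2-guide libraries against 79.0 ± 8.51 CPM in control-guide libraries (mean ± SD, n = 5 per guide; log2 fold change 0.85, SE 0.08, adjusted p = 4.2e-07), and the log2 fold change was 0.99 without both A libraries. ORC6 lies at chr16:46689659-46698394 (GRCh38.p14, RefSeq).

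**Figure D3:**
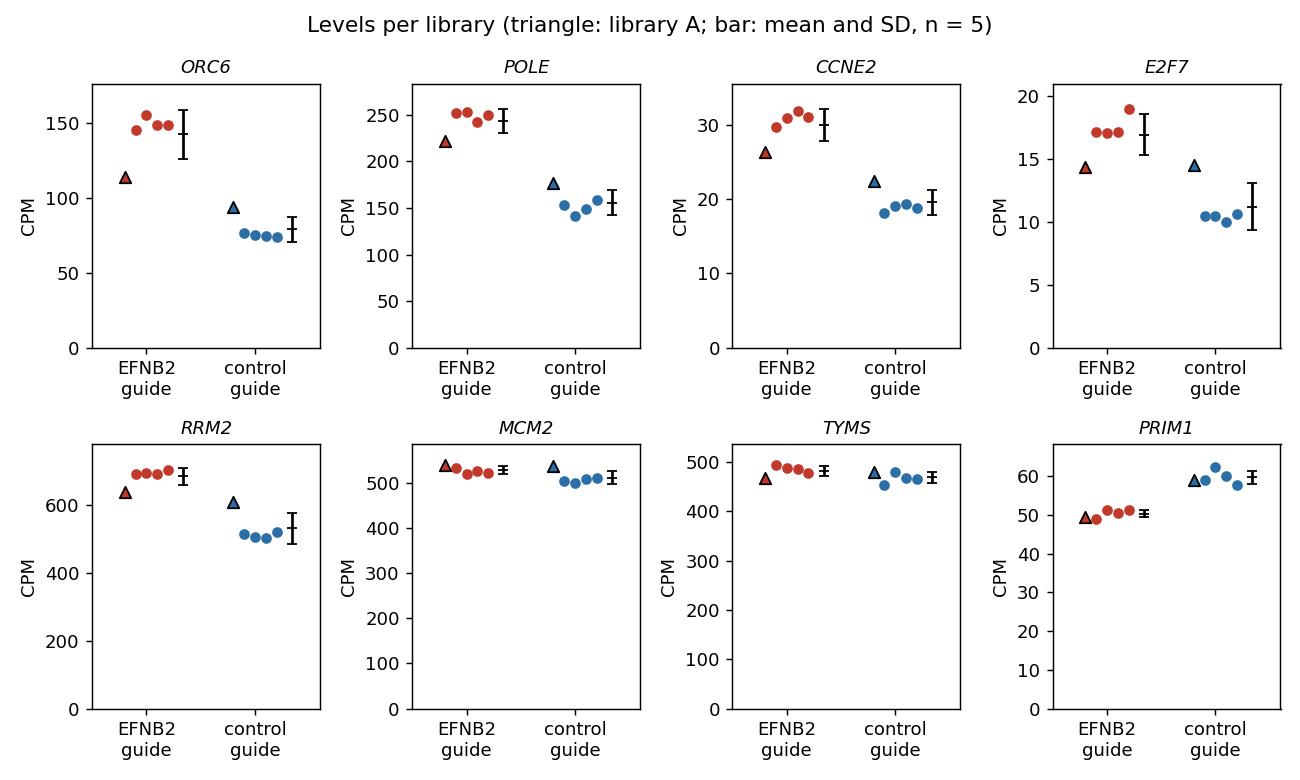
CPM of 8 members in each library, EFNB2-guide libraries left of control-guide libraries, with triangles for the A libraries and bars for the mean and SD of 5 libraries. ORC6, POLE and CCNE2 do not overlap between guides, E2F7 and MCM2 overlap only through the A libraries, TYMS overlaps with and without them, and PRIM1 is lower with the EFNB2 guide, at 49.04 to 51.2 CPM against 57.7 to 62.5 CPM.

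The other subunits of the complex differed less. ORC1, the large ATPase subunit that appears in G1, stood at 58.5, 62.6, 60.3, 62.5 and 61.9 CPM in EFNB2-guide libraries, against 62.3, 50.5, 50.6, 50.5 and 53.7 CPM in control-guide libraries. It was higher with overlapping groups (log2 fold change 0.19, SE 0.05, adjusted p = 0.00585), and control-guide A, at 62.3 CPM, lay within the EFNB2-guide values. ORC2, a core subunit, stood at 56.2, 59.4, 59.3, 59.9 and 58.7 CPM in EFNB2-guide libraries, against 57.4, 60.4, 59.0, 57.7 and 59.9 CPM in control-guide libraries, with interleaved groups (log2 fold change -0.00, SE 0.03, adjusted p = 0.911). Within a library, the log2 ratio of ORC1 to ORC2 counts was 0.06, 0.08, 0.02, 0.06 and 0.07 in EFNB2-guide libraries, against 0.12, -0.26, -0.22, -0.19 and -0.16 in control-guide libraries (difference 0.20, SE 0.07, adjusted exact permutation p = 0.0476), and this difference missed the threshold when any single library other than control-guide A was left out. It passed without both A libraries (0.27, adjusted exact permutation p = 0.0347).

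The loading factors CDC6 and CDT1 and the CDT1 inhibitor geminin (GMNN) were all higher, each with groups that did not overlap. CDC6, the ATPase that brings the helicase to the origin complex, stood at 64.3, 68.1, 69.5, 69.2 and 69.4 CPM in EFNB2-guide libraries, against 63.9, 53.6, 53.9, 55.8 and 54.0 CPM in control-guide libraries (log2 fold change 0.28, SE 0.04, adjusted p = 0.000114). CDT1, its partner in loading, stood at 156, 159.8, 159, 161 and 163 CPM in EFNB2-guide libraries, against 154, 135, 137, 140.1 and 143 CPM in control-guide libraries (log2 fold change 0.17, SE 0.03, adjusted p = 0.00046). GMNN stood at 43.6, 43.6, 44.4, 43.4 and 44.6 CPM in EFNB2-guide libraries, against 41.6, 39.2, 41.1, 40.5 and 40.7 CPM in control-guide libraries (log2 fold change 0.11, SE 0.03, adjusted p = 0.00294). In all 3, the lowest EFNB2-guide value lay above the highest control-guide value. CDC6 relative to CDT1, as a log2 ratio, was higher with the EFNB2 guide (difference 0.10, SE 0.03, adjusted exact permutation p = 0.0245), with overlapping groups. CDT1 relative to its inhibitor GMNN differed by less (difference 0.06, SE 0.03, adjusted exact permutation p = 0.0476), and that call depended on which libraries were used. For GMNN, at chr6:24774937-24786099, the 37 tested genes starting within 2 Mb had a median log2 fold change of 0.28, which is larger than its own.

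The 6 subunits of the MCM2 to MCM7 ring did not differ alike: MCM3, MCM4 and MCM7 were higher, MCM6 was lower, and MCM2 and MCM5 did not pass. MCM2 stood at 540.0, 533, 521, 527 and 522 CPM in EFNB2-guide libraries, against 537, 504, 499, 508 and 512 CPM in control-guide libraries (log2 fold change 0.05, SE 0.02, adjusted p = 0.141). Without both A libraries its groups did not overlap and it was higher (log2 fold change 0.06, adjusted p = 0.0124), as it was without control-guide A alone (adjusted p = 0.0326). MCM6 stood at 332, 321, 319, 331 and 326 CPM in EFNB2-guide libraries, against 363, 332, 334, 337 and 343 CPM in control-guide libraries (log2 fold change -0.07, SE 0.03, adjusted p = 0.0461). Every EFNB2-guide value of MCM6 lay below every control-guide value, the closest at 331.5 CPM in EFNB2-guide A and 331.8 CPM in control-guide B, but its call is the least secure of the 39: it was lost in 14 of 19 alternative analyses, with adjusted p between 0.00934 and 0.148. The ratio of MCM6 to MCM2 within a library does not depend on scaling. Its log2 value was -0.70, -0.73, -0.70, -0.67 and -0.68 in EFNB2-guide libraries, against -0.56, -0.60, -0.58, -0.59 and -0.58 in control-guide libraries (difference -0.12, SE 0.01, adjusted exact permutation p = 0.0135), with groups that did not overlap. The 3 subunits that were higher had log2 fold changes of 0.14 for MCM3, 0.13 for MCM4 and 0.17 for MCM7, each with overlapping groups in which control-guide A was highest of its guide. MCM5 had a log2 fold change of -0.02 (SE 0.03, adjusted p = 0.569).

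Of the 6 helicase activation genes, 4 were higher and 2 did not pass, with a median log2 fold change of 0.17. CDC45, which completes the active helicase together with GINS and the MCM ring, stood at 43.9, 46.1, 49.6, 47.7 and 48.1 CPM in EFNB2-guide libraries, against 43.3, 36.01, 34.7, 35.9 and 37.2 CPM in control-guide libraries. The groups did not overlap (log2 fold change 0.33, SE 0.05, adjusted p = 0.000108), although control-guide A, at 43.3 CPM, came close to the lowest EFNB2-guide value. MCM10, a replisome assembly factor, averaged 71.5 ± 2.53 CPM in EFNB2-guide libraries against 58.7 ± 4.66 CPM in control-guide libraries (mean ± SD, n = 5 per guide; log2 fold change 0.28, SE 0.05, adjusted p = 0.000113), also without overlap. The 4 GINS subunits work as 1 complex but did not pass together. GINS4 and GINS1 were higher, with log2 fold changes of 0.20 (SE 0.05, adjusted p = 0.00523) and 0.15 (SE 0.03, adjusted p = 0.00278). GINS2 stood at 42.6, 43.1, 44.7, 44.2 and 43.8 CPM in EFNB2-guide libraries, against 45.9, 43.5, 44.3, 44.1 and 42.5 CPM in control-guide libraries (log2 fold change -0.01, SE 0.03, adjusted p = 0.738). GINS3 stood at 21.3, 22.3, 22.8, 24.4 and 21.5 CPM in EFNB2-guide libraries, against 22.99, 20.2, 19.9, 21.7 and 21.3 CPM in control-guide libraries (log2 fold change 0.08, SE 0.05, adjusted p = 0.172), and passed without both A libraries, at a log2 fold change of 0.13 and an adjusted p of 0.0129. GINS3 relative to GINS2 differed by 0.10 on the log2 scale (SE 0.04, adjusted exact permutation p = 0.0476), a call lost when any of 8 single libraries was left out. GINS2 shares 7 exonic bases with GSE1 on the other strand, which has more counts. Whether the counting used strand is not stated.

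**Figure D4:**
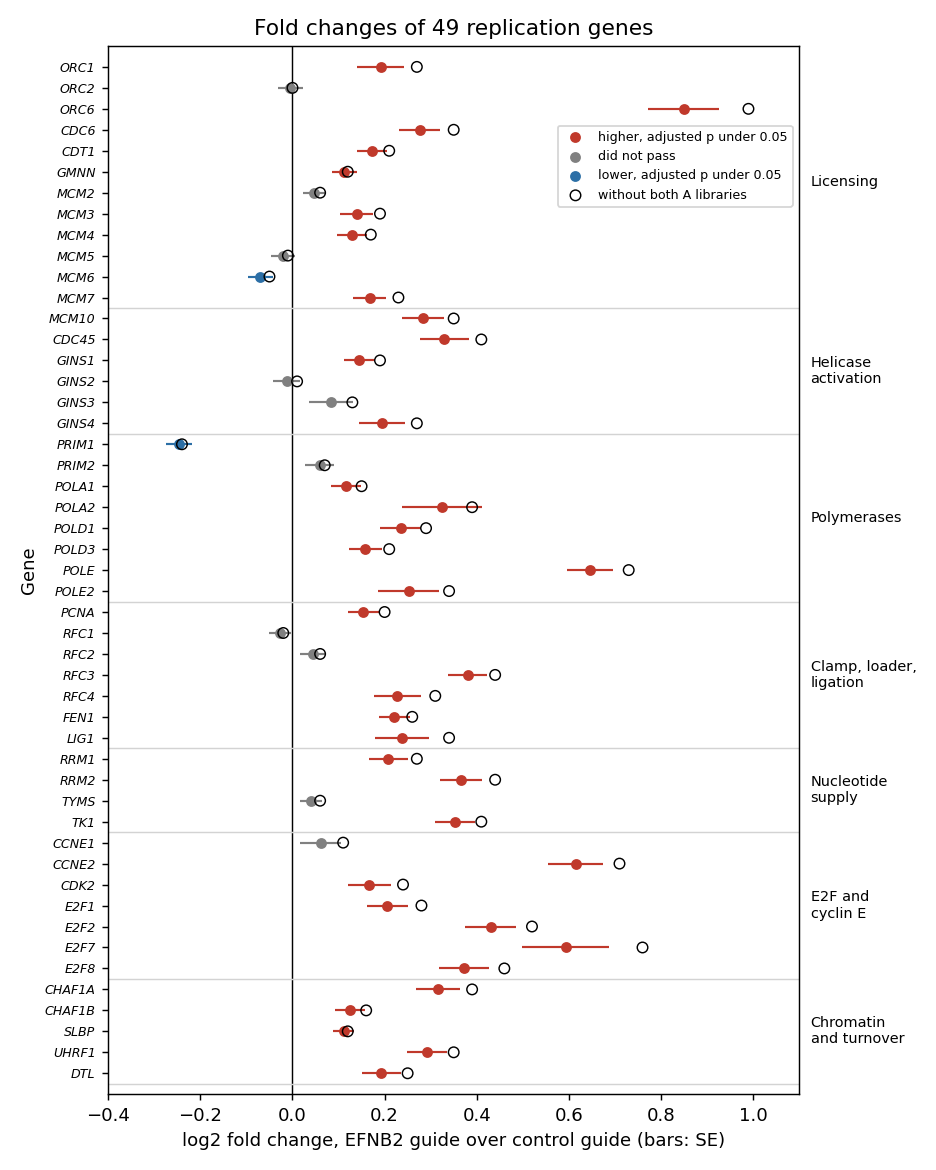
Log2 fold change of each of the 49 genes, EFNB2 guide over control guide, by role, with the value without both A libraries beside it. Bars are 1 SE, derived from the fold change and F statistic of the edgeR test. ORC6, POLE, CCNE2 and E2F7 lie highest and PRIM1 lowest, at -0.25.

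The polymerase group held the second highest and the lowest of the 49 log2 fold changes: 6 of its 8 genes were higher, 1 was lower and 1 did not pass, with a median of 0.20. POLE, the catalytic subunit of leading-strand polymerase epsilon, stood at 222, 251.6, 253, 242 and 249.1 CPM in EFNB2-guide libraries, against 176, 153, 142, 149 and 159 CPM in control-guide libraries. All EFNB2-guide values lay above all control-guide values (log2 fold change 0.65, SE 0.05, adjusted p = 6.34e-08), and the log2 fold change was 0.73 without both A libraries. POLE2, an accessory subunit of the same enzyme, stood at 12.9, 14.1, 16.1, 15.2 and 14.9 CPM in EFNB2-guide libraries, against 13.7, 13.3, 11.5, 11.5 and 11.5 CPM in control-guide libraries (log2 fold change 0.25, SE 0.07, adjusted p = 0.00656). As a log2 ratio, POLE over POLE2 was 4.10, 4.16, 3.98, 3.99 and 4.07 in EFNB2-guide libraries, against 3.69, 3.52, 3.63, 3.70 and 3.78 in control-guide libraries (difference 0.39, SE 0.06, adjusted exact permutation p = 0.0135), so the catalytic subunit differed by more than its partner. POLE lies near the end of chromosome 12, at chr12:132623762-132687342. Of 18 other tested genes starting within 2 Mb, 17 were higher with the EFNB2 guide and 0 were lower, with a median log2 fold change of 0.40, against 0.02 for the 743 other tested genes of the chromosome. POLE is the member whose neighbours differed most, and the part of its position in its difference was not tested.

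PRIM1, the catalytic primase subunit that makes the RNA primer, had the lowest log2 fold change of the 49. It stood at 49.6, 49.03, 51.2, 50.6 and 51.2 CPM in EFNB2-guide libraries, against 59.1, 59.0, 62.5, 60.1 and 57.7 CPM in control-guide libraries. The libraries varied little within each guide and the groups were well apart (log2 fold change -0.25, SE 0.03, adjusted p = 3.84e-06), and the value without both A libraries was -0.24. Its regulatory partner PRIM2 stood at 28.4, 28.1, 28.1, 30.0 and 29.3 CPM in EFNB2-guide libraries, against 27.9, 28.0, 27.8, 27.4 and 26.9 CPM in control-guide libraries, which did not pass across all genes (log2 fold change 0.06, SE 0.03, adjusted p = 0.135) although every EFNB2-guide value was above every control-guide value. Within a library, the log2 ratio of PRIM1 to PRIM2 was 0.81, 0.80, 0.87, 0.76 and 0.81 in EFNB2-guide libraries, against 1.08, 1.07, 1.17, 1.13 and 1.10 in control-guide libraries (difference -0.30, SE 0.02, adjusted exact permutation p = 0.0135). POLA1, the polymerase subunit that extends the primer, was higher at 71.4, 71.9, 72.4, 70.7 and 75.8 CPM in EFNB2-guide libraries, against 71.7, 67.1, 64.0, 65.4 and 66.1 CPM in control-guide libraries (log2 fold change 0.12, SE 0.03, adjusted p = 0.00837). PRIM1 relative to POLA1, as a log2 ratio, was accordingly lower without overlap (difference -0.36, SE 0.04, adjusted exact permutation p = 0.0135). PRIM1 thus fell within a 4-subunit enzyme whose other members were either higher or did not pass. PRIM1 shares 123 exonic bases with HSD17B6 on the other strand, which has fewer counts.

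POLA2, the accessory subunit of polymerase alpha, has the lowest level per length of the 49 genes and stood at 5.05, 4.99, 5.77, 5.23 and 4.65 CPM in EFNB2-guide libraries, against 4.73, 4.17, 3.46, 4.20 and 3.94 CPM in control-guide libraries (log2 fold change 0.33, SE 0.09, adjusted p = 0.00633). Its ratio to POLA1 passed with all libraries (difference -0.21, SE 0.08, adjusted exact permutation p = 0.0415 for POLA1 over POLA2) but not without both A libraries (-0.24, adjusted exact permutation p = 0.0911). This call was lost in 10 of the 12 alternatives run for ratios, most of them omissions of a single library. In lagging-strand polymerase delta, the catalytic subunit POLD1 stood at 148, 164, 159, 155 and 161 CPM in EFNB2-guide libraries, against 148, 126, 129, 127 and 141 CPM in control-guide libraries (log2 fold change 0.23, SE 0.04, adjusted p = 0.000417). Its accessory subunit POLD3 stood at 55.1, 56.9, 58.0, 57.3 and 58.8 CPM in EFNB2-guide libraries, against 56.3, 50.8, 50.2, 48.8 and 50.1 CPM in control-guide libraries (log2 fold change 0.16, SE 0.04, adjusted p = 0.00235). Both were higher, and the log2 ratio of POLD1 to POLD3 differed by 0.08 (SE 0.04, adjusted exact permutation p = 0.0476), a call lost without both A libraries (0.09, adjusted exact permutation p = 0.114). The POLD1 to POLD3 call was likewise lost in 10 of the 12 alternatives, most of them omissions of a single library.

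Among the clamp, clamp loader and ligation genes, 5 of 7 were higher and 2 did not pass, with a median of 0.22. PCNA, the sliding clamp, averaged 282 ± 7.04 CPM in EFNB2-guide libraries against 253 ± 13.3 CPM in control-guide libraries (mean ± SD, n = 5 per guide; log2 fold change 0.15, SE 0.03, adjusted p = 0.00143). The clamp loader, replication factor C, differed by subunit. RFC3, a small subunit, stood at 29.5, 31.4, 31.0, 31.8 and 31.8 CPM in EFNB2-guide libraries, against 26.5, 23.2, 22.6, 23.4 and 23.9 CPM in control-guide libraries, with groups well apart (log2 fold change 0.38, SE 0.04, adjusted p = 3.64e-06). RFC1, the large subunit, stood at 110.3, 110.2, 110.5, 108 and 109 CPM in EFNB2-guide libraries, against 117, 111, 109.7, 111 and 109.9 CPM in control-guide libraries (log2 fold change -0.03, SE 0.02, adjusted p = 0.356), and control-guide A was the highest of all 10 libraries. As a log2 ratio, RFC1 over RFC3 was 1.90, 1.81, 1.83, 1.76 and 1.77 in EFNB2-guide libraries, against 2.14, 2.26, 2.28, 2.25 and 2.20 in control-guide libraries (difference -0.41, SE 0.04, adjusted exact permutation p = 0.0135), the widest of the 17 ratios on the negative side. RFC4 was higher at a log2 fold change of 0.23 (SE 0.05, adjusted p = 0.00215) and RFC2 did not pass at 0.04 (SE 0.03, adjusted p = 0.202). RFC4 shares 21 exonic bases with EIF4A2 on the other strand, which has more counts.

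FEN1 and LIG1, which trim and seal the fragments of the lagging strand, were both higher. FEN1 averaged 212 ± 7.03 CPM in EFNB2-guide libraries against 182 ± 9.18 CPM in control-guide libraries (mean ± SD, n = 5 per guide; log2 fold change 0.22, SE 0.03, adjusted p = 7.72e-05), and its groups did not overlap. LIG1 averaged 127 ± 7.61 CPM in EFNB2-guide libraries against 108 ± 11.4 CPM in control-guide libraries (mean ± SD, n = 5 per guide; log2 fold change 0.24, SE 0.06, adjusted p = 0.00406), with a control-guide A value of 128 CPM inside the range of the EFNB2 guide.

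Of the nucleotide supply genes, RRM2, TK1 and RRM1 were higher and TYMS did not pass, with a median of 0.28. RRM2, the S phase subunit of ribonucleotide reductase, stood at 638, 689.8, 695, 691 and 702 CPM in EFNB2-guide libraries, against 608, 515, 506, 502 and 519 CPM in control-guide libraries (log2 fold change 0.37, SE 0.05, adjusted p = 1.13e-05). Its groups did not overlap, but EFNB2-guide A and control-guide A were close to each other. RRM1, the large subunit, stood at 149.6, 161, 164, 164 and 159.9 CPM in EFNB2-guide libraries, against 154, 132, 129.6, 135 and 141 CPM in control-guide libraries (log2 fold change 0.21, SE 0.04, adjusted p = 0.000892). The log2 ratio of RRM2 to RRM1 was 2.09, 2.10, 2.09, 2.07 and 2.13 in EFNB2-guide libraries, against 1.98, 1.96, 1.96, 1.90 and 1.88 in control-guide libraries (difference 0.16, SE 0.02, adjusted exact permutation p = 0.0135), so the S phase subunit differed by more.

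TK1, the cytosolic thymidine kinase of the salvage route, stood at 100.2, 115, 115, 121 and 115 CPM in EFNB2-guide libraries, against 91.5, 82.5, 92.7, 89.0 and 87.3 CPM in control-guide libraries (log2 fold change 0.35, SE 0.04, adjusted p = 1.05e-05). TYMS, thymidylate synthase of the de novo route, stood at 467, 494, 487, 486 and 477 CPM in EFNB2-guide libraries, against 479, 453, 479, 468 and 465 CPM in control-guide libraries (log2 fold change 0.04, SE 0.02, adjusted p = 0.194). TK1 was higher in every EFNB2-guide library than in any control-guide library, whereas TYMS overlapped. The log2 ratio of TYMS to TK1 was 2.22, 2.10, 2.09, 2.01 and 2.05 in EFNB2-guide libraries, against 2.39, 2.46, 2.37, 2.40 and 2.42 in control-guide libraries (difference -0.31, SE 0.04, adjusted exact permutation p = 0.0135). TYMS passed without both A libraries, at a log2 fold change of 0.06 and an adjusted p of 0.0167. It shares 967 exonic bases with ENOSF1 on the other strand, which has fewer counts.

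The E2F and cyclin E genes had the highest median of the role groups, at 0.37, with 6 of 7 higher and 1 not passing. CCNE2, which encodes cyclin E2, stood at 26.3, 29.7, 30.9, 31.8 and 31.0 CPM in EFNB2-guide libraries, against 22.4, 18.1, 19.1, 19.3 and 18.8 CPM in control-guide libraries (log2 fold change 0.62, SE 0.06, adjusted p = 8.01e-07). CCNE1, its paralog and the other activator of CDK2 at the start of S phase, stood at 15.9, 17.7, 17.0, 16.5 and 17.97 CPM in EFNB2-guide libraries, against 17.5, 16.2, 16.0, 15.8 and 16.1 CPM in control-guide libraries (log2 fold change 0.06, SE 0.05, adjusted p = 0.292). With all libraries, the groups did not overlap for CCNE2 and overlapped for CCNE1. Without both A libraries the groups did not overlap for CCNE1 either, at 16.5 to 17.97 CPM in EFNB2-guide libraries and 15.8 to 16.2 CPM in control-guide libraries, and it passed (log2 fold change 0.11, adjusted p = 0.0279). The log2 ratio of CCNE2 to CCNE1 was 0.73, 0.75, 0.87, 0.95 and 0.79 in EFNB2-guide libraries, against 0.36, 0.16, 0.25, 0.30 and 0.23 in control-guide libraries (difference 0.56, SE 0.05, adjusted exact permutation p = 0.0135), the widest of the 17 ratios. CCNE2 shares 1629 exonic bases with INTS8 on the other strand, which has 37494 counts over all libraries against 12841 for CCNE2, so its counts are uncertain where strand was not used. CDK2, the kinase partner, was higher at a log2 fold change of 0.17 (SE 0.05, adjusted p = 0.0081).

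The 4 E2F genes among the 49, activators E2F1 and E2F2 and repressors E2F7 and E2F8, were all higher. E2F1, an activator, stood at 99.1, 109, 107, 107 and 112 CPM in EFNB2-guide libraries, against 104, 88.8, 89.4, 87.6 and 92.0 CPM in control-guide libraries (log2 fold change 0.21, SE 0.04, adjusted p = 0.0015). E2F2, another activator, stood at 332, 366, 381, 361 and 361 CPM in EFNB2-guide libraries, against 316, 257, 251.8, 253 and 259 CPM in control-guide libraries (log2 fold change 0.43, SE 0.06, adjusted p = 1.33e-05). E2F1 relative to E2F2, as a log2 ratio, was lower with the EFNB2 guide (difference -0.23, SE 0.03, adjusted exact permutation p = 0.0135), without overlap. E2F7, an atypical E2F that represses E2F targets, stood at 14.4, 17.1, 17.1, 17.1 and 18.9 CPM in EFNB2-guide libraries, against 14.5, 10.45, 10.46, 10.0 and 10.6 CPM in control-guide libraries (log2 fold change 0.59, SE 0.09, adjusted p = 0.000102). Its control-guide A value lay just above its EFNB2-guide A value, and the log2 fold change was 0.76 without both A libraries. E2F8, the other atypical repressor, stood at 40.5, 43.3, 46.2, 43.2 and 45.7 CPM in EFNB2-guide libraries, against 39.1, 33.6, 32.0, 31.6 and 32.6 CPM in control-guide libraries (log2 fold change 0.37, SE 0.05, adjusted p = 4.44e-05). Likewise, E2F7 relative to E2F8 passed with all libraries (difference 0.23, SE 0.06, adjusted exact permutation p = 0.0337) and without both A libraries (0.30, adjusted exact permutation p = 0.0347), but not under each of the single-library omissions.

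All 5 genes of chromatin assembly and protein turnover were higher, with a median of 0.19. CHAF1A, the large subunit of the histone chaperone CAF-1, stood at 173, 183, 182, 180.2 and 183 CPM in EFNB2-guide libraries, against 167, 143, 133, 140.0 and 140.5 CPM in control-guide libraries (log2 fold change 0.32, SE 0.05, adjusted p = 5.08e-05). CHAF1B, the middle subunit, stood at 74.0, 74.0, 74.5, 71.6 and 75.5 CPM in EFNB2-guide libraries, against 74.0, 66.0, 66.4, 65.4 and 67.1 CPM in control-guide libraries (log2 fold change 0.13, SE 0.03, adjusted p = 0.00624). Their log2 ratio, CHAF1A over CHAF1B, averaged 1.28 ± 0.04 in EFNB2-guide libraries against 1.09 ± 0.06 in control-guide libraries, without overlap (SD, n = 5 each; difference 0.19, SE 0.03, adjusted exact permutation p = 0.0135). UHRF1, which brings the maintenance DNA methyltransferase to new DNA, averaged 192 ± 3.34 CPM in EFNB2-guide libraries against 157 ± 12.9 CPM in control-guide libraries (mean ± SD, n = 5 per guide; log2 fold change 0.29, SE 0.04, adjusted p = 5.1e-05). SLBP, which binds the stem-loop of replication-dependent histone mRNAs, was higher by less, with a log2 fold change of 0.11 (SE 0.02, adjusted p = 8.47e-04) and groups that did not overlap. DTL, the ubiquitin ligase receptor that removes CDT1 in S phase, had a log2 fold change of 0.19 (SE 0.04, adjusted p = 0.00162).

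**Figure D5:**
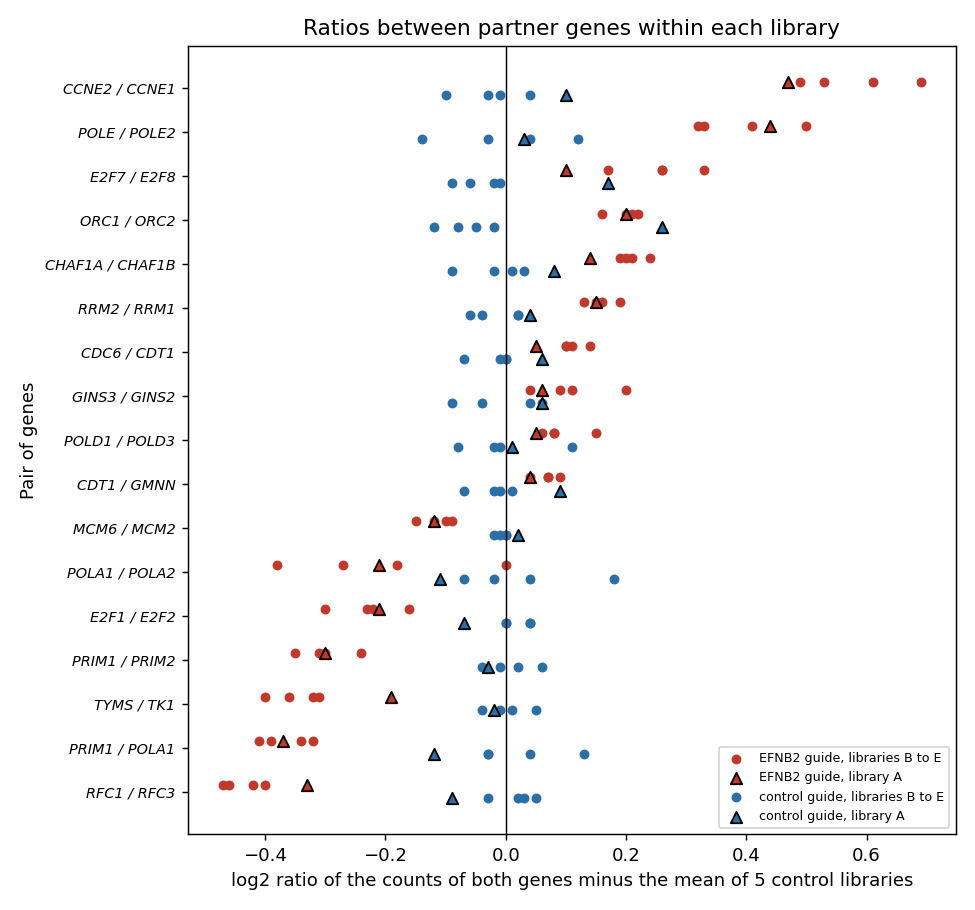
Log2 ratio of the counts of both genes, minus the mean of the control-guide libraries, for the 17 pairs of members that were compared, with 1 point per library, EFNB2-guide libraries in the upper row of each pair and triangles for the A libraries. For 10 pairs the libraries of the guides do not overlap, and the difference is 0.56 for CCNE2 over CCNE1 and -0.41 for RFC1 over RFC3.

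The 17 pairs of partners, paralogs or activator and inhibitor were tested as ratios within a library, by a two-sided exact permutation test of the guide labels, which with 5 libraries per guide can give no p below 0.0079. All 17 passed after Benjamini-Hochberg adjustment over the pairs, with adjusted p between 0.0135 and 0.0476, and 11 of them passed under each of the 12 alternatives run for ratios (the authors' normalized values, leaving out each library, and leaving out both A libraries). The last of these was added after seeing the data. It gave 14 ratios past the threshold, and with 4 libraries per guide its p cannot fall below 0.0286. The pairs were chosen with earlier results of these data known, and pairs of other genes were not tested. The number of pairs that passed therefore has no background share beside it. With 30.3% of all genes tested not overlapping between the guides, unequal differences between 2 genes may be common. A ratio shows that its genes differed unequally between the guides, not which of them did so. The 11 that passed throughout were CCNE2 to CCNE1, PRIM1 to PRIM2, PRIM1 to POLA1, POLE to POLE2, RRM2 to RRM1, CDC6 to CDT1, E2F1 to E2F2, CHAF1A to CHAF1B, MCM6 to MCM2, RFC1 to RFC3 and TYMS to TK1.

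Per kilobase of exon, the levels of the 49 genes spanned a wide range in these cells. TYMS was highest at 290 CPM per kb with the EFNB2 guide and 282 with the control guide, and PCNA followed at 192 with the EFNB2 guide and 172 with the control guide. RRM2 stood at 177 CPM per kb with the EFNB2 guide and 137 with the control guide, and MCM2 at 146 with the EFNB2 guide and 141 with the control guide, so their order differed between the guides. POLA2 was lowest at 1.37 with the EFNB2 guide and 1.09 with the control guide, followed by E2F7 at 2.95 with the EFNB2 guide and 1.95 with the control guide.

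Other replication genes outside the 49 were taken as a list of 71, of which 39 were higher, 10 lower and 22 did not pass, with a median log2 fold change of 0.13. That is 54.9% higher and 14.1% lower, against 22.8% and 22.6% of all genes tested, whose median was 0.01. By role, 9 of 14 origin firing factors were higher (1 lower), as were 11 of 22 fork genes (3 lower), 4 of 11 nucleotide genes (0 lower) and 5 of 7 chromatin genes (0 lower). The RB, E2F and cyclin list was more divided, with 10 of 17 higher (58.8%) and 6 lower (35.3%). The nucleotide list had the smallest share higher of these lists, at 36.4%, and a median of 0.04. TICRR, which helps to load CDC45, stood at 44.4, 50.6, 51.0, 50.8 and 48.9 CPM in EFNB2-guide libraries, against 32.2, 25.5, 24.7, 25.8 and 28.6 CPM in control-guide libraries (log2 fold change 0.85, SE 0.06, adjusted p = 4.15e-08). The 40 tested genes within 2 Mb of TICRR had a median log2 fold change of 0.33, and the 488 other tested genes of chromosome 15 a median of 0.30. RECQL4, a helicase of origin firing, stood at 44.01, 51.0, 49.6, 50.9 and 49.01 CPM with the EFNB2 guide, against 42.6, 30.9, 28.8, 28.4 and 29.9 CPM with the control guide (log2 fold change 0.61, SE 0.09, adjusted p = 5.03e-05). RFC5, a small clamp loader subunit left out of the 49, stood at 66.3, 71.4, 72.0, 72.4 and 74.5 CPM with the EFNB2 guide, against 55.1, 49.3, 46.9, 47.3 and 47.2 CPM with the control guide (log2 fold change 0.54, SE 0.04, adjusted p = 1.12e-07), and the 17 tested genes within 2 Mb of it had a median of 0.26. CHTF18, of an alternative clamp loader, stood at 41.3, 54.7, 54.5, 51.1 and 52.0 CPM with the EFNB2 guide, against 49.3, 34.5, 30.7, 30.4 and 34.7 CPM with the control guide (log2 fold change 0.50, SE 0.11, adjusted p = 0.00191). For RECQL4 and CHTF18, control-guide A lay far above the other control-guide libraries.

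The 4 lowest called values in that list were those of CDKN1C, E2F5, POLD4 and TFDP2. CDKN1C, which encodes the cyclin-dependent kinase inhibitor p57, stood at 0.790, 0.503, 0.690, 0.451 and 0.731 CPM with the EFNB2 guide, against 2.268, 1.47, 2.40, 2.11 and 1.84 CPM with the control guide (log2 fold change -1.67, SE 0.18, adjusted p = 1.7e-06), a gene of low level here. On the authors' normalized values its log2 fold change was -0.90, where a pseudocount of 1 was added before taking logarithms. E2F5, which acts mainly with RB-family repressors, stood at 10.4, 11.8, 11.2, 11.6 and 11.7 CPM with the EFNB2 guide, against 16.1, 15.1, 16.2, 15.9 and 15.4 CPM with the control guide (log2 fold change -0.47, SE 0.05, adjusted p = 5.87e-07). POLD4, the small subunit of polymerase delta, stood at 1.67, 1.87, 1.71, 1.78 and 2.31 CPM with the EFNB2 guide, against 2.25, 2.48, 2.53, 2.31 and 2.26 CPM with the control guide (log2 fold change -0.34, SE 0.10, adjusted p = 0.0151). TFDP2, a dimerization partner of E2Fs, stood at 35.8, 36.4, 33.4, 34.7 and 36.2 CPM with the EFNB2 guide, against 42.7, 43.0, 43.8, 44.04 and 43.9 CPM with the control guide (log2 fold change -0.30, SE 0.03, adjusted p = 9.79e-07). CDKN1C, E2F5 and TFDP2 belong to the divided RB, E2F and cyclin list, and POLD4 is a subunit of the enzyme whose POLD1 and POLD3 were higher.

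A list of 20 genes of G2 and mitosis was set beside the replication genes. All 20 were higher with the EFNB2 guide, against 22.8% of all genes tested. Their median log2 fold change was 0.43, against 0.19 for the 49 replication genes and 0.01 over all genes, and the difference between the lists was not tested. The 4 that differed by more than 1.5-fold were NUSAP1 (1.06, a gene of low level), CCNB2 (0.87), KIF23 (0.75) and BUB1B (0.67). They lie on chromosome 15, where the 488 other tested genes had a median of 0.30. The part of their position was not tested. At letter A, EFNB2-guide above control-guide held for 17 of these 20 with a median of 0.13, and at the other letters for all 20 with medians of 0.48 to 0.54. Of all genes tested, it held for 49.1% at A and for 50.2% to 51.4% at the other letters. At letter A the replication genes were thus divided, and most of the mitotic genes were higher, though by less than at the other letters. The shift of the A libraries was also present in the mitotic genes. EFNB2-guide A was the lowest of its guide for all 20 (100%, against 29.9% of all genes tested). Control-guide A was the highest of its guide for 19 (95.0%, against 28.9%).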

How the data were processed

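PolyA RNA of 10 U266 libraries was sequenced as paired reads from strand-specific libraries, per the labels' protocols. The submitters' processing notes name STAR 2.27a, Partek, DESeq2 and the build GRCh38, without saying which step each served. The sources used here give neither the strand setting nor the annotation of the counting. The deposited table of raw counts per gene was the basis of every test, and the authors' normalized values per gene, a signal that the deposited file's name calls TMM-normalized in Partek with a small constant added, served as an alternative only.

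The 49 members, the role groups, the other gene lists, the pairs and the tests were chosen with earlier results of these data known. Genes with per-library values were EFNB2, the 3 highest and 3 lowest log2 fold changes, both genes of each pair that passed and the member with the smallest p of each role group, and outside the members the 4 largest called changes in each direction.

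Counts were tested with edgeR 4.0.16 in R 4.3.3 (TMM scaling, filterByExpr, quasi-likelihood F test, guide as the only term, Benjamini-Hochberg over 17833 genes, threshold 0.05). Fitted fold changes are those of that model, and CPM use TMM-scaled library sizes. The SE of a fold change was derived as its absolute log2 value over the square root of its F statistic. Beforehand, 4 rows without a gene name were left out, with at most 0.000401% of the counts of a library. The common biological coefficient of variation was 0.0489. A count of 0 in a library would allow up to 0.0537 to 0.0627 CPM (3 counts), for counting error only. Pair ratios were tested by exact permutation of the libraries. Lengths are unions of exons in GENCODE 29, and gene coordinates and promoters are from RefSeq (GRCh38.p14). The fit was tested on simulated counts.

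Alternatives were DESeq2 1.42.0, limma 3.58.1 (voom), DESeq2-type size factors, library totals alone, no filter, at least 1 CPM in 5 libraries, a replicate block, limma on log2 of the normalized values plus 1, leaving out each library, and leaving out both A libraries. Same-letter deviations from the group means were not positively correlated: the correlations were -0.237 for A and -0.0853 to -0.00305 for the others. This check cannot show whether libraries of a letter were handled together. A shared effect that moves the guides in opposite directions also gives a negative correlation.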

Additional observations from a re-analysis of the deposited data

Results flagged for a closer look

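In 32 of 150 groups of 5 values (49 members, the named genes outside them and the 17 ratios, each by guide), 1 library lay far from the other 4 by Dixon's criterion of 0.71. By chance about 1 group in 20 is marked. All 32 values belong to an A library, 25 to control-guide A and 7 to EFNB2-guide A, and 0 to any other.

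EFNB2-guide A was the low value for ORC6 at 114 CPM (the others 145 to 155), CDC6 at 64.3 CPM (68.1 to 69.5), MCM7 at 302 CPM (327 to 334), RRM2 at 638 CPM (689.7 to 702) and CHAF1A at 173 CPM (180.2 to 183). Outside the 49 genes it was the low value for RECQL4 at 44.01 CPM (49.01 to 51.0) and CHTF18 at 41.3 CPM (51.1 to 54.7).

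Control-guide A was the high value for licensing and helicase genes. ORC1 stood at 62.3 CPM (the others 50.5 to 53.7), ORC6 at 94.1 CPM (74.0 to 76.8), CDC6 at 63.9 CPM (53.6 to 55.8), MCM4 at 329.7 CPM (289.6 to 298) and MCM7 at 316 CPM (280.4 to 284). CDC45 stood at 43.3 CPM (34.7 to 37.2), GINS1 at 60.8 CPM (54.7 to 55.5) and GINS4 at 40.5 CPM (33.2 to 35.1).

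It was likewise high for fork genes: POLD3 at 56.3 CPM (48.8 to 50.8), RFC1 at 117 CPM (109.7 to 111), RFC4 at 97.5 CPM (77.1 to 82.5) and LIG1 at 128 CPM (102 to 104). In nucleotide supply and at the G1/S switch it was high for RRM2 at 608 CPM (502 to 519), CCNE1 at 17.5 CPM (15.8 to 16.2), CDK2 at 64.3 CPM (53.3 to 55.2), E2F1 at 104 CPM (87.6 to 92.0), E2F2 at 316 CPM (251.9 to 259), E2F7 at 14.5 CPM (10.0 to 10.6) and E2F8 at 39.1 CPM (31.6 to 33.6). In chromatin assembly it was high for CHAF1B at 74.0 CPM (65.4 to 67.1) and UHRF1 at 179 CPM (149 to 157).

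RECQL4 at 42.6 CPM (28.4 to 30.9) and CHTF18 at 49.3 CPM (30.4 to 34.7) showed the same library high outside the 49 genes. The log2 ratio of E2F7 to E2F8 was -1.43 in control-guide A (-1.69 to -1.61 in the others), and that of ORC1 to ORC2 was 0.118 (-0.258 to -0.157 in the others).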

How the results depend on the processing

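Of the 39 members called, 38 kept their direction and their call in all 19 alternatives, and MCM6 did not. Members called higher numbered 37 to 41 over these settings, with medians of 0.17 to 0.25. Members called lower numbered 1, in place of 2, under the stricter filter (1 CPM or more in 5 libraries), with library totals alone, without a filter, and with the replicate block, and 1 in each of the fits that left out a single library. MCM6 is the gene lost, and the cause was not tested. Of the members that did not pass, MCM2, GINS3, TYMS and CCNE1 passed without both A libraries (MCM2 also without control-guide A), and ORC2, MCM5, GINS2, PRIM2, RFC1 and RFC2 passed in none. ORC2 lay between -0.02 and 0.01 when single libraries were left out. Its sign turned, to 0.00 with the 1 CPM filter, without EFNB2-guide E, without control-guide E and without both A libraries, and to 0.01 with library totals alone, without EFNB2-guide A and without control-guide B. GINS2 turned to 0.00 with library totals alone and to 0.01 without both A libraries.

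The replicate block gave 37 members higher and 1 lower. The labels do not say whether the letters pair the libraries. The same-letter correlations were all negative, and the largest in size was -0.237. Of the 17 pair ratios, 11 to 14 passed when a single library was left out. The smaller number of splits then raises the smallest p. Members have between 2402 and 315680 counts over all libraries, and POLA2, the lowest, also had the widest SE among the polymerase genes.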
